A study of Oryctolagus cuniculus with 6 samples.

Results

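The genes IBSP, SPP1, DMP1 and MEPE, which encode acidic bone matrix proteins and lie together on rabbit chromosome 15, were followed with the phosphate regulator gene PHEX in tissue growing into skull defects. These 5 of the 9990 genes named on the array were given by name with 1 probe each, and the further probes of the same genes on the array brought the set to 11 of the 43603 probes measured. All 11 were well above background on all 6 arrays, and all 11 passed the filter for the fit.

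The array samples came from defects filled with HPD and from unfilled control defects on days 3, 5 and 7, with 1 array per treatment and day (n = 1). HPD is the human particulated dentin of the series title, that is ground human tooth tissue, and 0.2 g of it was placed in each filled defect. All animals were male New Zealand White rabbits of 4 months, 24 in the whole study, and every rabbit carried both kinds of defect, each 5 mm wide, in the parietal bone of the skull. The labels name the tissue as newly formed, and whether an array holds RNA from more than 1 rabbit is not given in the sources used here. Blood was also sampled for RNA according to the study's design text, although no label names it for these 6 arrays. With 1 array per group, a difference on a single day has no replicate check and no test.

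Bone sialoprotein (IBSP), osteopontin (SPP1), dentin matrix protein 1 (DMP1) and matrix extracellular phosphoglycoprotein (MEPE) belong to the small integrin-binding ligand N-linked glycoproteins, secreted and strongly acidic proteins that bind calcium phosphate mineral. Osteoblasts laying down bone make IBSP, osteoblasts, osteoclasts and macrophages make SPP1, and osteocytes buried in mineralised bone are known for DMP1 and MEPE. PHEX is a membrane endopeptidase of osteoblasts and osteocytes. Its loss, like that of DMP1, raises the phosphate-wasting hormone FGF23, and it is known to cleave the acidic motif that several of these proteins share.

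Each array probe is a stretch of 60 bases, and the sequences show what was measured and how far several probes of a gene are independent readings. In the coordinates of the files, on oryCun2, the chromosome 15 probes lay within 351 kb and all on the minus strand, in the order SPP1, MEPE, IBSP and DMP1. The main IBSP probe was at chr15:62360093-62360152 and the second at chr15:62360113-62360172, the main DMP1 probe at chr15:62507160-62507219 with the other 4 shifted against it by a few bases, and the MEPE probes at chr15:62320844-62320903 and chr15:62320750-62320809. PHEX was read at chrX:8004982-8005041 on the plus strand. Exon and UTR annotation of this build was not used here. In the main IBSP probe the capitals mark the codons for arginine, glycine and aspartate, the RGD motif through which integrins bind the protein, in 1 of the 2 reading frames of the probe that hold no stop codon. In the second IBSP probe they mark the 40 bases shared with the main one, and in the DMP1 probes the 55 bases that all 5 share. The 2 MEPE probes share no base, and the PHEX probe has no capitals.
IBSP main probe: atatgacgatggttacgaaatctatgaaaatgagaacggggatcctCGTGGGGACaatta
IBSP second probe: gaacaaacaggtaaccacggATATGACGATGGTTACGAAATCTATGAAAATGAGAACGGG
DMP1 main probe: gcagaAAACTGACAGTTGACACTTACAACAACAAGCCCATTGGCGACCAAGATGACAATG
DMP1 other probe: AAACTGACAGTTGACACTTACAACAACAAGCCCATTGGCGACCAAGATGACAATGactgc
MEPE main probe: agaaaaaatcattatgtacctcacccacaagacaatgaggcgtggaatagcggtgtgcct
MEPE second probe: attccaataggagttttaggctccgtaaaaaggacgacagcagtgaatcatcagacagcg
PHEX probe: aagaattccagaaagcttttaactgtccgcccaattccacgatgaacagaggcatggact

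Levels below are log2 of the processed intensity minus the array's 75th percentile, so that 0 is the 75th percentile of the array. They compare a probe between arrays and not 1 gene with another. Processed, unlogged intensities at that percentile were 309 to 471, 78.1% to 86.4% of the spots were well above background, and 0 were saturated. The scanner software's own error for the members' spots was 10% to 18.3% of the signal. The headers place both day 3 arrays on 1 slide and the arrays of days 5 and 7 on another, so a difference of either later day from day 3 and a difference between slides cannot be told apart. In tissue of mixed cells, fewer cells of a type and less RNA per cell cannot be told apart either.

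IBSP, DMP1 and PHEX shared a time course in which the HPD defects trailed the control defects on day 5 and stood above them on day 7. On the day 5 arrays IBSP was 4.27-fold, DMP1 4.83-fold and PHEX 3.56-fold lower with HPD, and on day 7 they were 1.94-fold, 2.01-fold and 1.85-fold higher. The HPD arrays of all 3 genes were highest on day 7 and the control arrays on day 5. SPP1 and MEPE did not follow that course: SPP1 was higher with HPD on each day, most on day 3, and MEPE on day 3 was 5.16-fold lower with HPD, then 2.52-fold higher on day 5.

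**Figure D1:**
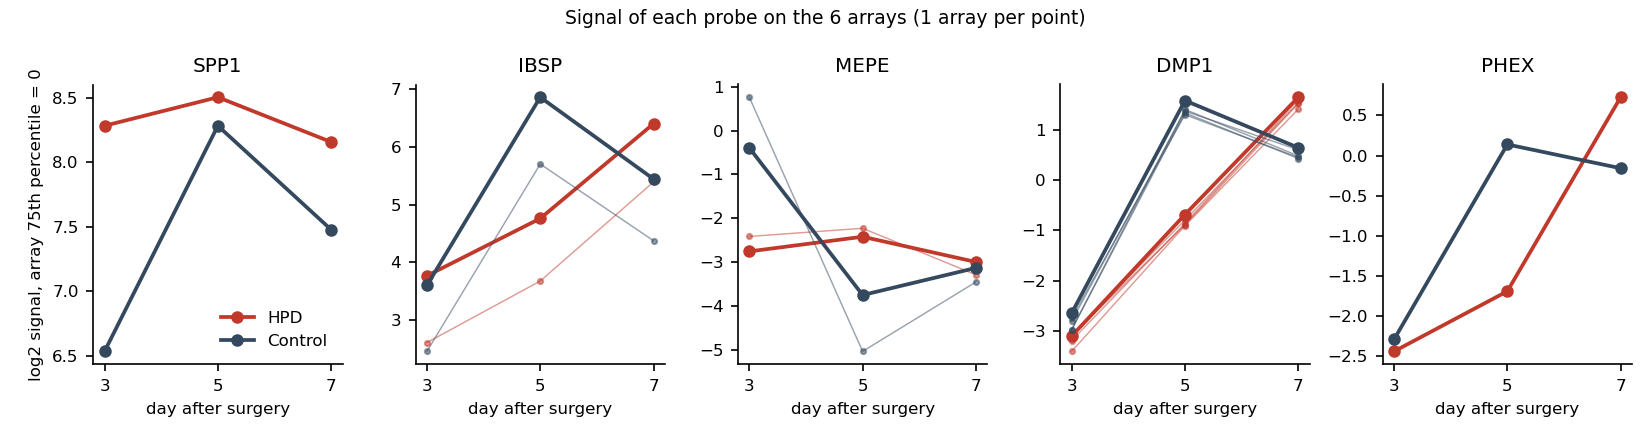
Level of each probe of the 5 genes by day after surgery (x axis, days 3, 5 and 7), as log2 signal with the array's 75th percentile at 0 (y axis, on its own range in each panel). Each point is 1 array, HPD in red and control in dark blue, with thick lines for the main probe and thin lines for further probes of the gene. IBSP, DMP1 and PHEX peak on day 7 in HPD defects and on day 5 in control defects, SPP1 stands higher with HPD on each day, and MEPE is highest in the control defects of day 3.

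IBSP, the bone sialoprotein gene whose product is laid down in new mineralising matrix, had levels of 3.77, 4.76 and 6.40 in HPD defects on days 3, 5 and 7, against 3.61, 6.85 and 5.44 in control defects. In intensity these were 6257, 11022 and 27588 in HPD defects and 5723, 46430 and 13416 in control defects. The day 3 pair was nearly level, the control array led on day 5 and the HPD array on day 7, so the treatments overlapped over the 3 days. The HPD minus control difference was 0.16 on day 3, -2.09 on day 5 and 0.95 on day 7 on the log2 scale. Scaled to the arrays' medians in place of the 75th percentile, the day 3 difference turned to -0.0084, while over all probes above background the median day 3 difference was 0.10. The second IBSP probe gave 0.15, -2.02 and 1.02, with most of its sequence shared.

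DMP1, an early osteocyte gene whose protein nucleates mineral, had levels of -3.11, -0.68 and 1.65 in HPD defects on days 3, 5 and 7, against -2.65, 1.59 and 0.65 in control defects. Its intensity on day 3 was 53.3 in the HPD defect and 75 in the control defect, and on day 7 it was 1031 in the HPD defect and 484 in the control defect. Both treatments were thus lowest on day 3, and the day 5 control array reached a level close to that of the day 7 HPD array. The HPD minus control difference was -0.46 on day 3, a 1.37-fold lower signal, then -2.27 on day 5 and 1.01 on day 7. The 5 overlapping DMP1 probes ran from -0.46 to -0.12 on day 3, from -2.30 to -2.10 on day 5 and from 0.98 to 1.08 on day 7, so their direction was shared on each day.

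PHEX, the endopeptidase gene on chromosome X, had levels of -2.44, -1.69 and 0.73 in HPD defects on days 3, 5 and 7, against -2.29, 0.14 and -0.16 in control defects. The HPD arrays of days 3 and 5 were low and that of day 7 was the highest of the 6. The HPD minus control difference was -0.15 on day 3, -1.83 on day 5 and 0.89 on day 7. PHEX lies on another chromosome than IBSP and DMP1 and was read by a single probe.

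SPP1, the osteopontin gene, had levels of 8.28, 8.51 and 8.16 in HPD defects on days 3, 5 and 7, against 6.53, 8.28 and 7.48 in control defects. Its intensity was 142941, 147878 and 93629 in HPD defects and 43509, 125226 and 55045 in control defects, below the saturation mark of the scanner. The 3 HPD arrays lay close together, and the control array of day 3 was the lowest of all 6, with the control array of day 5 level with the HPD array of day 3. The HPD minus control difference was 1.75 on day 3, 0.22 on day 5 and 0.68 on day 7, which is 3.37-fold, 1.17-fold and 1.60-fold higher. A signal higher with HPD on all 3 days was found for 23.1% of the 32958 probes above background on all 6 arrays.

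MEPE, whose product is a phosphoprotein of osteocytes that carries this acidic motif near its C-terminus, had levels of -2.76, -2.42 and -3.00 in HPD defects on days 3, 5 and 7, against -0.39, -3.75 and -3.13 in control defects. Its intensity was 67.8, 75.9 and 41.0 in HPD defects and 359, 29.8 and 35.2 in control defects. The control array of day 3 stood apart above the other 5, which were dim but well above background. The HPD minus control difference was -2.37 on day 3, 1.33 on day 5 and 0.14 on day 7, the day 5 value being 0.29 under another background correction (normexp). The second MEPE probe, from another stretch of the transcript, had levels of -2.42, -2.23 and -3.29 in HPD defects and 0.77, -5.04 and -3.46 in control defects. Its differences were -3.18, 2.81 and 0.16, with the directions of the main probe on each day and larger sizes on days 3 and 5. The day 5 value rests on a control intensity of 12.2, with a spot error of 18.3%, the highest among the members.

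**Figure D2:**
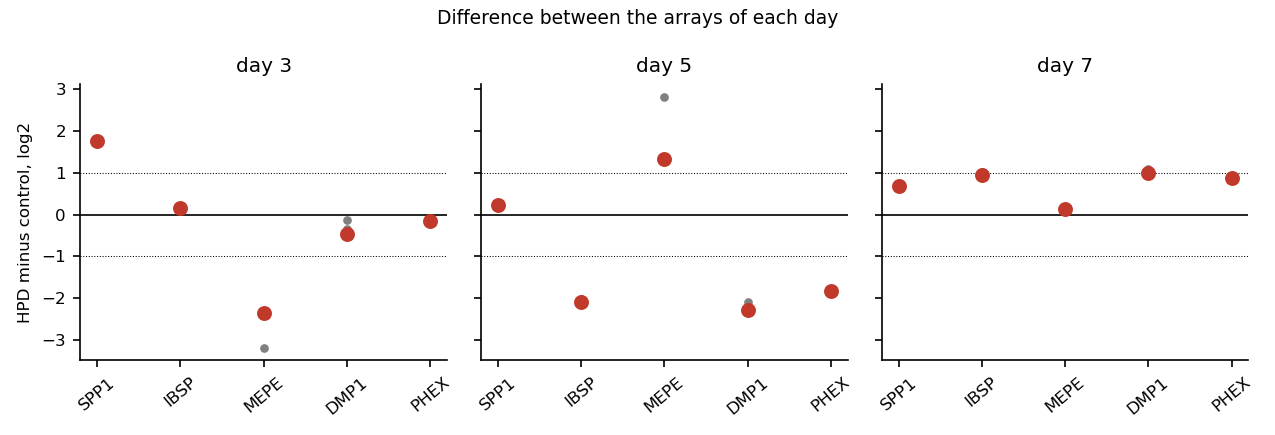
HPD minus control difference on the log2 scale (y axis) for each gene (x axis) on days 3, 5 and 7, from 1 array per treatment and day. Red points are the main probes, grey points the further probes and dotted lines a 2-fold difference, and the IBSP, DMP1 and PHEX points of day 5 lie between -2.30 and -1.83 and those of day 7 between 0.89 and 1.08.

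Against the whole array, 1 of the 5 main probes was at least 2-fold higher with HPD on day 3, SPP1, where 3.36% of all probes above background on both arrays were, and 1 was at least 2-fold lower, MEPE, against 2.98%. On day 5, 3 were at least 2-fold lower, against 1.89% of all probes, and 1 was at least 2-fold higher, against 4.54%. On day 7, DMP1 alone of the main probes passed 2-fold, against 1.59% of all probes higher and 0.856% lower. The sequence seen in IBSP, DMP1 and PHEX, at least 2-fold lower with HPD on day 5 and higher on day 7, was found for 410 of 32958 probes, or 1.24%. That of MEPE, at least 2-fold lower on day 3 and at least 2-fold higher on day 5, was found for 196 probes, or 0.595%.

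Over all 3 days no HPD effect on a member passed the test, and none of the 36881 probes tested did. The fit was limma's linear model with day and treatment as terms over the 6 arrays, with Benjamini-Hochberg adjustment, and it called 0% of probes, while 3070 had an unadjusted p under 0.05, or 8.32%. SPP1 had the highest estimate of the members, 0.89 ± 0.33 (SE, 6 arrays, log2 HPD minus control, 95% interval 0.0050 to 1.77, adjusted p = 0.575 in limma), higher with HPD on 3 of 3 days. For IBSP the estimate was -0.32 ± 0.63 (limma adjusted p = 0.860, interval -2.0 to 1.35), with opposite directions on days 5 and 7. For DMP1 it was -0.57 ± 0.65 (limma adjusted p = 0.750, interval -2.31 to 1.16), for PHEX -0.36 ± 0.55 (adjusted p = 0.815, interval -1.82 to 1.09) and for MEPE -0.30 ± 0.74 (adjusted p = 0.894, interval -2.28 to 1.68). These averages join days of opposite sign: without either day 5 array the IBSP, DMP1 and PHEX estimates were 0.56, 0.27 and 0.37, and without either day 3 array that of MEPE was 0.73. Within the slide of day 3 the SPP1 difference was 1.75, and within the slide of days 5 and 7 it averaged 0.45.

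From day 3 to day 7, DMP1, PHEX and IBSP were higher in both treatments, and MEPE was lower in control defects. In HPD defects the main MEPE probe was 1.18-fold and the second MEPE probe 1.83-fold lower on day 7 than on day 3. In HPD defects, DMP1 was 27.1-fold, PHEX 8.99-fold and IBSP 6.17-fold higher on day 7 than on day 3. In control defects the corresponding differences were 9.82-fold, 4.39-fold and 3.57-fold. At least 2-fold higher on day 7 than on day 3 were 3 of the 5 members in HPD defects, against 5.03% of all probes, and 3 of 5 in control defects, against 7.47%. At least 2-fold lower were 0 members in HPD defects, against 4.4% of all probes, and 1 in control defects, MEPE, against 5.6%. A 2-fold increase in both treatments was found for 1011 of 32958 probes, or 3.07%.

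The steps between days differed by treatment. IBSP was 1.99-fold higher on day 5 than on day 3 in HPD defects and 9.49-fold higher in control defects. DMP1 was 5.36-fold higher on day 5 than on day 3 in HPD defects and 18.8-fold higher in control defects, and PHEX was 1.68-fold higher in HPD defects and 5.39-fold higher in control defects. On day 7 against day 5 the picture turned: IBSP was 3.11-fold, DMP1 5.05-fold and PHEX 5.35-fold higher in HPD defects, while in control defects they were 2.66-fold, 1.92-fold and 1.23-fold lower. For at least 2-fold differences the background was 3.5% higher and 2.99% lower from day 3 to day 5 in HPD defects and 5.5% higher and 6.39% lower in control defects. From day 5 to day 7 it was 3.53% higher and 4.26% lower in HPD defects, and 2.95% higher and 1.56% lower in control defects. Whether a step differed between the treatments was not tested, since each rests on 2 arrays.

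SPP1 in HPD defects hardly moved over time, with differences of 0.22 on day 5 and -0.13 on day 7 from day 3, and the first turned to -0.29 after quantile normalization. In control defects SPP1 was 3.37-fold higher on day 5 than on day 3 and 1.75-fold lower on day 7 than on day 5. MEPE in control defects was 10.3-fold lower on day 5 than on day 3 and 1.54-fold higher on day 7 than on day 5. In HPD defects MEPE differed by 0.34 on day 5 and by -0.24 on day 7 from day 3, and the day 7 value was 0.085 after normexp correction. The second MEPE probe in control defects was 56.0-fold lower on day 5 than on day 3. It was 3.00-fold higher there on day 7 than on day 5. Both folds rest on the control array of day 5, where its intensity was 12.2 with a spot error of 18.3%. In HPD defects this probe differed by 0.19 on day 5 and by -0.88 on day 7 from day 3.

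In the same limma fit no member passed the test between days. Day 7 minus day 3, averaged over both treatments, was 4.03 ± 0.79 for DMP1 (SE, limma adjusted p = 0.119), 2.65 ± 0.67 for PHEX (adjusted p = 0.145) and 2.23 ± 0.77 for IBSP (adjusted p = 0.200), each higher in 2 of 2 treatments. Without the HPD array of day 7 these were 2.84 for DMP1, 1.71 for PHEX and 1.27 for IBSP, and without the control array of day 7 they were 5.21 for DMP1, 3.59 for PHEX and 3.19 for IBSP. SPP1 stood at 0.41 ± 0.40 (limma adjusted p = 0.570) and MEPE at -1.49 ± 0.91 (adjusted p = 0.379), and without the control array of day 3 these were -0.24 and 0.058. The fit called 4 of 36881 probes for that contrast, or 0.0108%, and 22.8% had an unadjusted p under 0.05. After normexp correction it called 2474 probes, and DMP1 (3.09 ± 0.56, limma adjusted p = 0.0258) and PHEX (2.02 ± 0.44, limma adjusted p = 0.0417) passed. Across the alternatives the adjusted p of DMP1 ran from 0.0258 to 0.490 and that of PHEX from 0.0417 to 0.541. Without the HPD array of day 3 the count of called probes was 287, and without any other single array it was 0.

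Day 5 minus day 3 gave limma estimates of 3.33 ± 0.79 for DMP1 (adjusted p = 0.219), 2.12 ± 0.77 for IBSP (adjusted p = 0.279), 1.59 ± 0.67 for PHEX (adjusted p = 0.316), 0.99 ± 0.40 for SPP1 (adjusted p = 0.309) and -1.51 ± 0.91 for MEPE (adjusted p = 0.428), with 0.0136% of probes called. Without the control array of day 3 the MEPE value was 0.036 and that of SPP1 0.34, and without the HPD array of day 3 SPP1 was 1.64. Without the HPD array of day 5 the estimates were 4.60 for DMP1, 3.44 for IBSP, 2.69 for PHEX and 1.48 for SPP1. Without the control array of day 5 they were 2.06 for DMP1, 0.79 for IBSP, 0.49 for PHEX and 0.49 for SPP1. Day 7 minus day 5 lay between -0.58 ± 0.40 for SPP1 and 1.06 ± 0.67 for PHEX, with limma adjusted p values from 0.610 to 0.994. It called 0% of probes, and 9.4% had an unadjusted p under 0.05.

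The order of the arrays is given for each gene, and its gaps are set against limma's moderated residual SD. This SD is drawn toward a value shared by all probes. It also holds any HPD difference that changes between days, so it is not array noise alone. IBSP spanned 9.49-fold from the control array of day 5, through HPD day 7, control day 7, HPD day 5 and HPD day 3, to control day 3, and 2 of the 5 gaps between neighbours exceeded its SD of 0.77. DMP1 spanned 27.1-fold and PHEX 8.99-fold in 1 shared order, HPD day 7, control day 5, control day 7, HPD day 5, control day 3 and HPD day 3. For DMP1, 3 of 5 gaps exceeded the SD of 0.79, those below control day 5, control day 7 and HPD day 5. For PHEX, the gap below control day 7 alone exceeded the SD of 0.67. SPP1 spanned 3.93-fold, and only the 2 gaps that set control day 7 and control day 3 below the rest exceeded its SD of 0.40. MEPE spanned 10.3-fold, and only the gap below the control array of day 3 exceeded its SD of 0.91.

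The likeness of the profiles was described by the root mean square distance between mean-centred log2 levels over the 6 arrays, where 0 is an identical course. IBSP and PHEX were 0.41 apart, and DMP1 was 0.77 from each of them. SPP1 was 1.11 from IBSP and 1.78 from DMP1. MEPE stood at 2.14 from IBSP, 2.74 from DMP1, 2.10 from PHEX and 1.64 from SPP1.

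Among 8655 named genes above background on all 6 arrays, the closest to IBSP were RANBP3L (0.28), RERG (0.29), MAMDC2 (0.30), ENPP6 (0.34) and ECRG4 (0.35), all lower with HPD on day 5, by -2.52 to -1.44, and higher on day 7. The closest to PHEX were ROBO1 (0.17), GNAI1 (0.19), RERG (0.20), SERPINA6 (0.21) and FNDC1 (0.23). DMP1 had the collagen chain gene COL11A2 (0.35), the keratan sulfate proteoglycan gene OMD (0.50), ECRG4 (0.61), the proteoglycan gene OGN (0.69) and FNDC1 (0.73) nearest. The genes nearest to MEPE were INMT (0.28), TREML1 (0.33), HEMGN (0.35), ORM1 (0.37) and ARHGDIB (0.37), all lower with HPD on day 3, by -2.67 to -1.60. Among the genes nearest to SPP1 were NEUROG1 (0.22), KCNF1 (0.29), ADRB3 (0.30) and GABRB2 (0.30). These distances rest on 6 arrays that all genes share and are a description without a test.

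**Figure D3:**
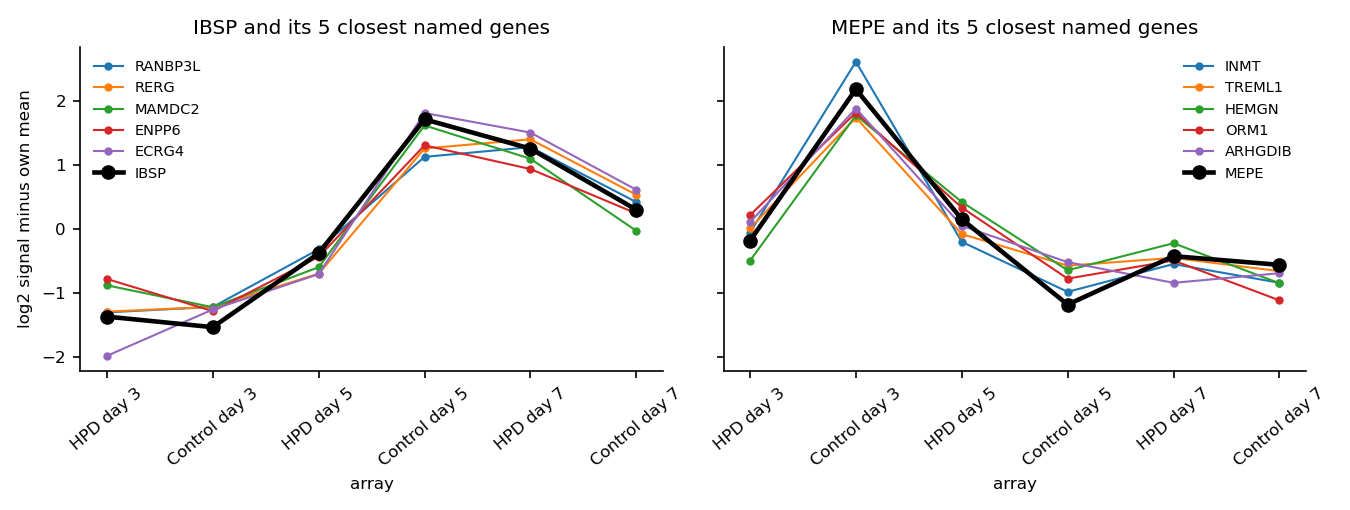
Level of IBSP (left) and MEPE (right) in black, each with its 5 closest named genes in colour, on the 6 arrays (x axis, HPD left of control within each day), as log2 signal minus the gene's own mean (y axis). IBSP and its neighbours are highest on the control array of day 5, or on the HPD array of day 7 for RANBP3L and RERG, and MEPE and its neighbours on the control array of day 3.

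The genes around the cluster gave a comparison for position. Within 1 Mb of it lay 57 further probes, of which 48 were above background on all 6 arrays, from 9 named genes and unnamed transcripts. On day 5, when IBSP and DMP1 stood more than 4-fold lower with HPD, these 48 ran from -1.14 to 0.89 and 1 was at least 2-fold lower, a probe of the mitochondrial phosphatase gene PPM1K. On day 3 they ran from -0.50 to 1.42, with 3 at least 2-fold higher and 0 lower, and on day 7 from -1.41 to 0.55, with 1 at least 2-fold lower. Some of these probes overlap and are not independent readings. The probe at 1.42 on day 3 overlapped others of its transcript at -0.42 to -0.16. The probe at -1.41 on day 7 overlapped the probe at 0.55. Day 7 minus day 3 in the fit ran from -0.71 to 0.99 among the 48, against 4.03 for DMP1 and 2.23 for IBSP. SPP1, at 0.41, lay within that range, and MEPE, at -1.49, below it. The SPP1 difference of day 5, 0.22, also lay within the range of these 48. Its differences of days 3 and 7, 1.75 and 0.68, lay above their ranges on those days. A plus-strand probe 0.11 kb from the SPP1 probe differed by 0.39, 0.16 and 0.35 on days 3, 5 and 7. SPARCL1, a matrix glycoprotein gene related to SPARC, stood at -0.03, 0.48 and -0.81. No test was made of the members against these neighbours.

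**Figure D4:**
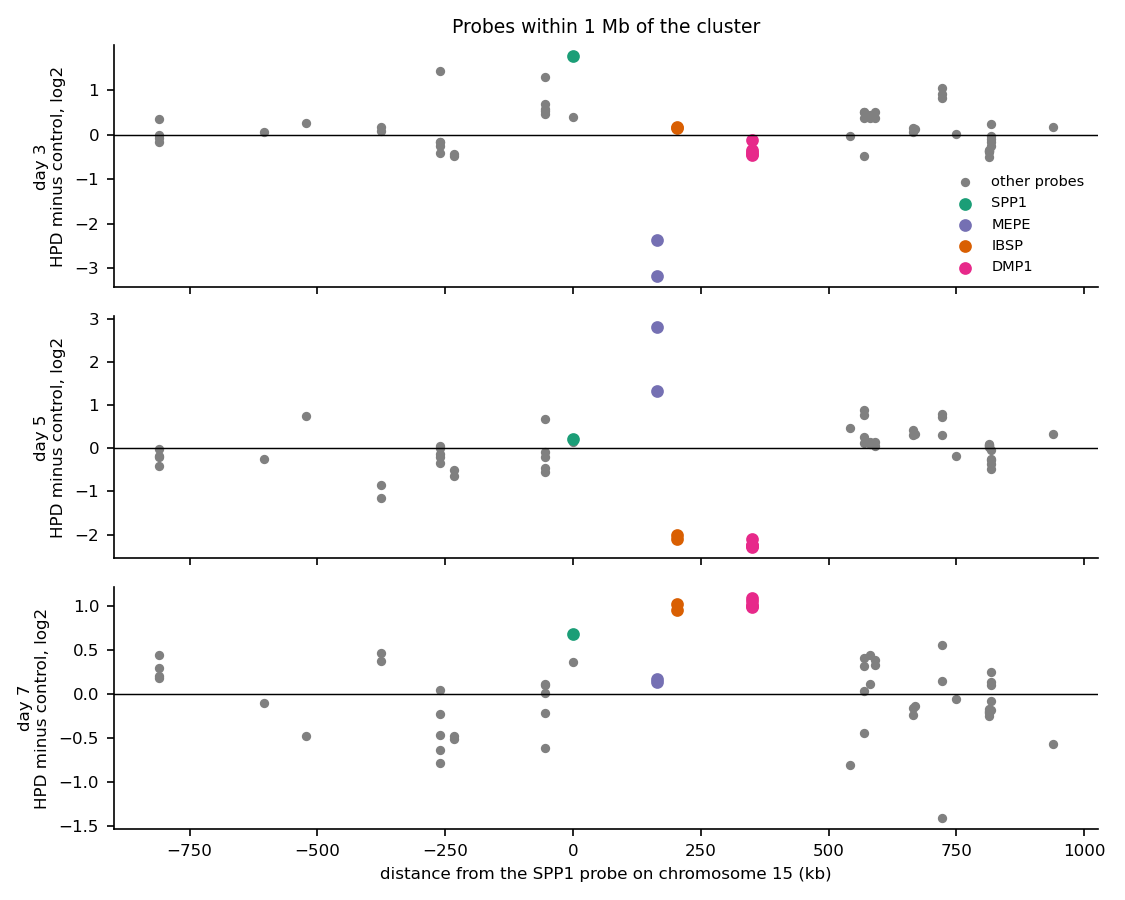
HPD minus control difference on the log2 scale (y axis, 1 panel per day) of probes on chromosome 15 against their distance in kb from the SPP1 probe (x axis). Coloured points are probes of the 4 genes and grey points the other 48 probes above background on all 6 arrays. On day 5 the grey points lie between -1.14 and 0.89. The SPP1 point lies within that range, the IBSP and DMP1 points below it and the MEPE points above.

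Other genes of mineral and phosphate handling did not share the day 5 difference. Of 16 listed genes besides the members, 12 were measured, and their median HPD minus control difference was 0.53 on day 3, 0.29 on day 5 and 0.33 on day 7, beside medians of 0.10, 0.04 and 0.03 over all probes. Higher with HPD were 10 of 12 on day 3, 10 of 12 on day 5 and 11 of 12 on day 7. ENPP1, which makes the mineralisation inhibitor pyrophosphate, stood at 0.86, 0.95 and 0.64 on days 3, 5 and 7. PHOSPHO1, a phosphatase that starts mineral in matrix vesicles, stood at 0.47, 1.09 and 0.04. The vitamin D receptor gene VDR stood at 1.18 on day 3, and CA2, a carbonic anhydrase gene of both osteoclasts and red cells, at -2.10 on day 3. None of the 12 was called in the limma fit. ALPL and FGF23 were not analysed here, nor was DSPP, the gene of dentin sialophosphoprotein from the same family.

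Receptors for these proteins, integrin chains and CD44, differed less. All 9 measured of 10 listed were higher with HPD on day 3, at a median of 0.31 and with 0 at 2-fold, and the medians of days 5 and 7 were 0.09 and -0.12. CD44, a receptor of osteopontin and hyaluronan, stood at 0.72, 0.73 and 0.22 on the 3 days. Proteases that cleave or accompany the family, with 13 of 17 measured, had medians of 0.48, -0.08 and 0.25. On day 3 the membrane metalloproteinase gene MMP14 stood at 1.46 and the osteoclast protease gene CTSK at 1.22, the only 2 of the 13 at least 2-fold higher, against 3.36% of all probes.

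Genes of the osteoblast matrix were lower on day 5 as IBSP and DMP1 were. Of 18 listed, 13 were measured, their median differences were 0.03, -0.58 and 0.09 on days 3, 5 and 7, and on day 5 11 were lower, 5 of them at least 2-fold, against 1.89% of all probes. OMD stood at -2.18 on day 5, OGN at -1.56 and the collagen gene COL5A2 at -1.35, while MGP, an inhibitor of calcification, stood at 1.47. The regulators of osteoblasts had medians of 0.31, -0.50 and 0.41, and on day 5 8 of 10 were lower, 4 at least 2-fold, with the parathyroid hormone receptor gene PTH1R at -1.65, DLX5 at -1.44 and BMP4 at -1.07 among them. RUNX2, which drives osteoblast formation and binds the promoter of IBSP, stood at 0.71, -0.70 and 0.58, and SP7, which acts after it, at 0.05, 0.01 and 0.28. From day 3 to day 7 all 13 matrix genes were higher, at a median of 1.59 in the fit, 11 of them at least 2-fold against 5.75% of all probes. None of the genes of either list was called by limma in any contrast.

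**Figure D5:**
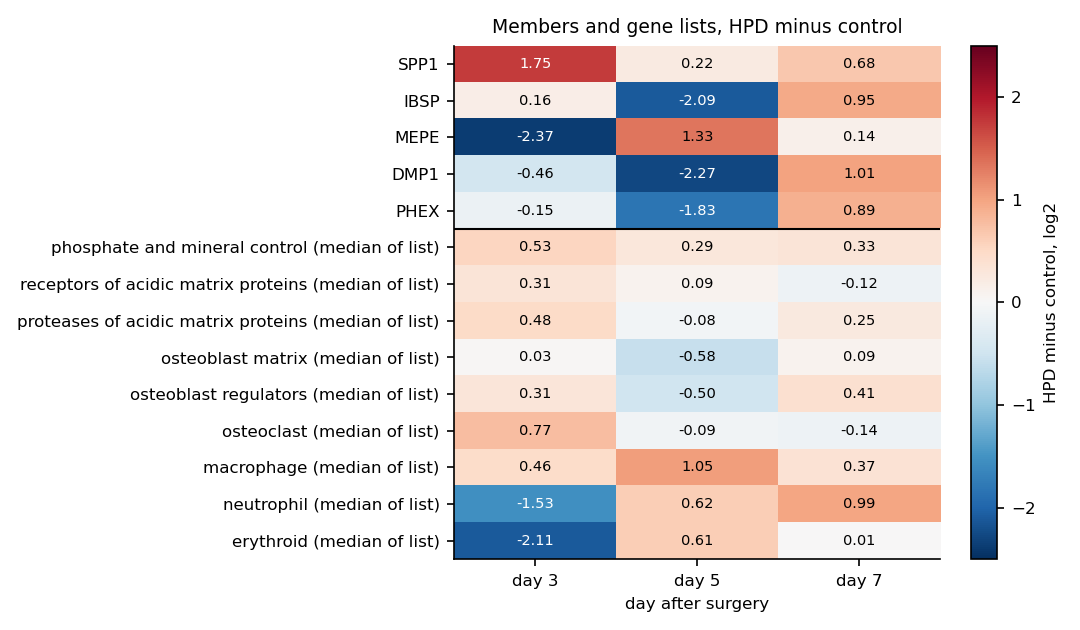
HPD minus control difference on the log2 scale for the 5 genes (upper block) and the median of each gene list without them (lower block) on days 3, 5 and 7, coloured from blue (lower with HPD) to red (higher). IBSP, DMP1 and PHEX and both osteoblast lists are lower on day 5, and MEPE, the neutrophil list and the erythroid list are lower on day 3.

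Markers of other cells moved beside some of these values. On day 3, when SPP1 was higher with HPD, the osteoclast list had 8 of 9 measured genes higher at a median of 0.77, with ATP6V0D2 at 1.74, DCSTAMP at 1.25, CTSK at 1.22 and ACP5 at 1.1. CTSK, MMP9 and ITGB3 of this list also stand in the protease or receptor list. The summed level of the osteoclast list, in multiples of the array's 75th percentile, was 208 in HPD and 112 in control defects on day 3, 210 in HPD and 240 in control defects on day 5, and 268 in HPD and 294 in control defects on day 7. In this and the following sums the brightest genes of a list weigh most. Of 9 measured macrophage markers, 5 were higher with HPD on day 3, 9 on day 5 and 6 on day 7, at medians of 0.46, 1.05 and 0.37, with summed levels of 58.2, 42.4 and 30.4 in HPD defects and 40.3, 21.4 and 23.2 in control defects. Their part in the SPP1 values was not tested.

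On day 3, when MEPE was lower with HPD, all 5 measured erythroid markers of 8 listed were lower, at a median of -2.11, with TMOD1 at -2.97, RHAG at -2.69, EPB42 at -2.11 and ALAS2 at -1.76. Of 7 neutrophil markers 6 were lower, at a median of -1.53. The summed erythroid level was 11.5, 70.8 and 28.6 in HPD defects on days 3, 5 and 7, and 40.8, 49.3 and 32.0 in control defects. ALAS2, the brightest of the 5 on each array, made up most of these sums. In control defects the sum rose from day 3 to day 5, while the median difference of the list was -1.03, with 3 of 5 genes lower. The summed neutrophil level was 517, 652 and 48.9 in HPD defects and 1435, 215 and 16.5 in control defects. Its rise from day 3 to day 5 in HPD defects came from S100A8 and S100A9 alone. The other 5 of the 7 neutrophil markers were lower on day 5, and the mean log2 level of the list went from 3.91 to 1.75. Both lists, like MEPE, had positive median differences on day 5, 0.61 and 0.62. On day 7 the median was 0.01 for the erythroid and 0.99 for the neutrophil list, with 7 of 7 neutrophil markers higher, while MEPE stood at 0.14. The part of these cells in the MEPE values was not tested. The osteocyte list without the members, 7 of 10 genes measured, had medians of 0.03, 0.29 and 0.04. Its member SOST, the sclerostin gene of mature osteocytes, stood at 0.03, 0.29 and 0.04, and DKK1 at -1.82 on day 5. Of 4 odontoblast and enamel genes named on the array, 1 was above background on all 6 arrays, KLK4, while ENAM and MMP20 were above it on 0 arrays and AMTN on 1.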

How the data were processed

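Total RNA of newly formed tissue was labelled with Cy3 and hybridised to 1-colour rabbit arrays, per the labels' protocols. The deposited intensity values are on a linear scale and come from Agilent Feature Extraction 10.5.1.1 with background subtraction and detrending, per the file headers. No step between arrays is recorded there.

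Log2 of the processed intensity, which the authors deposited unlogged, was centred by subtracting the 75th percentile of the array's non-control probes. Spots with outlier marks were dropped (41 probes lost), and duplicate spots averaged. Probes were named through the files' own columns and RefSeq gene names (mOryCun1.1, not the files' build); of 43603 probes, 22693 had a single symbol and 20910 did not, 23 of these because several fitted. For lists, the brightest probe stood for a gene. Probes well above background on at least 3 of 6 arrays (36881) were fitted with limma 3.58.1 in R 4.3.3, modelling each probe on day and treatment (2 residual degrees of freedom, 2.44 from the prior) and Benjamini-Hochberg adjustment at 0.05 over all of them. Single days and within-treatment steps were compared without a test, among probes above background on both arrays. Tables were made in Python 3.11.15 with numpy 2.4.6 and pandas 2.3.3, and plots with matplotlib 3.10.9.

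Day as a term treats the pair of arrays of a day as sharing animals, an assumption. The p-values reflect the scatter of 6 arrays only, and that number limits the precision. The members and gene lists were chosen with earlier results of these data known. Named with values were every probe of the members, up to 4 genes of a list per comparison with the largest differences, neighbours within 1 Mb, and the 5 closest profiles per member; RUNX2, SP7, SOST, CD44, KLK4, ENAM, MMP20, AMTN and SPARCL1 were added after their values were seen. Some genes that this rule takes are not reported here. Alternatives were quantile and median scaling, normexp, other filters, gene-level features, a variance trend, no day term and leaving out each array. The normexp correction added an offset of 50 to each corrected intensity.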

Additional observations from a re-analysis of the deposited data

Results flagged for a closer look

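For 4 of the 5 genes the HPD minus control difference was at least 1.5-fold in opposite directions on different days. Each value is from 1 array per treatment and day, and the difference between days was not tested. The share of all probes meeting this rule was not counted. The narrower pattern of at least 2-fold lower on day 5 and higher on day 7 was found for 1.24% of probes. That of at least 2-fold lower on day 3 and at least 2-fold higher on day 5 was found for 0.595%. IBSP stood at -2.09 on day 5 and 0.95 on day 7. DMP1 stood at -2.27 on day 5 and 1.01 on day 7. PHEX stood at -1.83 on day 5 and 0.89 on day 7. MEPE stood at -2.37 on day 3 and 1.33 on day 5. All values are log2 differences of the main probes, and the second or further probes of IBSP, DMP1 and MEPE had the same directions on these days.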

How the results depend on the processing

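Of the alternatives run, those other than leaving out an array kept the direction of the HPD effect of all 5 genes and of their day 7 minus day 3 and day 5 minus day 3 contrasts, and the HPD effect had 0 called probes under each. Day 7 minus day 3 called 4 probes, and 2474 after normexp, 0 without a filter on dim probes, 28 with the filter on all arrays, 22 with a variance trend, and 1 each with the brightest or the mean probe per gene. Day 5 minus day 3 called 5 probes, and 544 after normexp, 0 without a filter, 21 with a trend, and 1 each with the brightest or the mean probe per gene. Day 7 minus day 5 called 2 after normexp. Normexp brought DMP1 (3.09, limma adjusted p = 0.0258) and PHEX (2.02, limma adjusted p = 0.0417) past the threshold for day 7 minus day 3, moved MEPE to 0.29 on day 5 and turned MEPE in HPD defects to 0.085 from day 3 to day 7. Quantile normalization turned SPP1 in HPD defects to -0.29 from day 3 to day 5. MEPE day 7 minus day 5 turned to -0.091 with quantile and -0.054 with median scaling, and the day 3 difference of IBSP to -0.0084 with median scaling. The cause of these shifts was not tested.

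Leaving out each array in turn, the lone array of a day being assumed to vary like the others (1 residual degree of freedom), called 0 to 287 probes for day 7 minus day 3 and 0 to 125 for day 5 minus day 3, both highest without the HPD array of day 3. The HPD effect ran from -0.96 to 0.56 for IBSP, from -1.36 to 0.27 for DMP1, from -0.99 to 0.37 for PHEX, each highest without a day 5 array, and from -1.12 to 0.73 for MEPE, highest without a day 3 array. Day 7 minus day 5 ran from -1.21 to 1.44 for IBSP, from -0.57 to 1.97 for DMP1, from -0.038 to 2.16 for PHEX, each lowest without the HPD array of day 5, and from -1.20 to 1.25 for MEPE, lowest without the control array of day 5. Without the control array of day 3, day 7 minus day 3 was highest for MEPE (-3.04 to 0.058) and lowest for SPP1 (-0.24 to 1.06), and day 5 minus day 3 was highest for MEPE (-3.06 to 0.036). The main fit already pairs the arrays of a day, with day as the block. No paired analysis was possible beyond that by replicate number, since each treatment and day had 1 array. Without the day block the smallest adjusted p of the HPD effect was 0.955 in limma.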
